A study of Mus musculus with 6 samples.

Results

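The mitochondrial ribosomal proteins are the nuclear-encoded proteins of the ribosome inside mitochondria. The genes described here were chosen by a rule on name and annotation, with earlier results of these data known. It took every row of the gene table whose Ensembl ID is a protein-coding gene in GENCODE M21. The gene's symbol also had to begin with Mrpl or Mrps and a digit. The rule found 77 of the 43629 genes in the table, 48 named Mrpl and 29 named Mrps, and 1 further gene of that name pattern, Mrpl33, was not analysed here. By the systematic naming of the mammalian mitoribosome, 50 of the 77 belong to the large subunit and 26 to the small subunit. Mrps30 and Mrps18a are large subunit proteins in spite of their names, and the remaining gene, Mrps36, encodes a component of the 2-oxoglutarate dehydrogenase complex and is not counted with either subunit.

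Mitochondrial ribosomes translate the few messenger RNAs that the mitochondrial genome encodes, all of them for subunits of the respiratory chain and the ATP synthase. Their RNA comes from the mitochondrial genome, while all their proteins are made in the cytosol from nuclear genes and imported, so each mitoribosome needs the products of both genomes. Inhibitors of mitochondrial translation have been studied as a way to act on acute myeloid leukaemia cells, which depend on respiration to a large degree.

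RNA was measured in leukaemic bone marrow cells of C57BL/6 mice at the end point of disease, in 6 libraries. The Gata2+/f group held replicates 7, 9 and 11 and carried 1 Gata2 allele that the labels write as f; the Gata2+/+ group held replicates 3, 5 and 6. All mice of both groups carried the Cbfb-MYH11 knockin, a model of the fusion gene made by inversion of chromosome 16 in human leukaemia, and all cells had been frozen, thawed and sorted for c-kit. The labels give neither the age nor the sex of the mice, no Cre or promoter that would act on the f allele, and no statement that each library is a different mouse, so p-values measure only the spread between these libraries. The study's title names Gata2 deficiency in this leukaemia as its subject.

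Library totals ranged from 53789528 to 67854615 expected counts. Gata2, the targeted gene, had 498, 273 and 264 CPM (counts relative to the scaled library total) in Gata2+/f replicates 7, 9 and 11 and 886, 887 and 737 CPM in Gata2+/+ replicates 3, 5 and 6, which goes with the labels (log2 fold change -1.28, SE 0.32; edgeR adjusted p = 0.109, DESeq2 adjusted p = 0.00684). Kit, the receptor used for the sort, had 193, 175 and 328 CPM in Gata2+/f and 826, 1222 and 1466 CPM in Gata2+/+. Summed levels of several lists of cell type markers also differed between the groups. The summed level of 7 progenitor markers, Kit and Gata2 among them, was 915 to 1200 CPM in Gata2+/f and 1983 to 2598 CPM in Gata2+/+. These 7 did not move as 1 set: 5 had a negative and 2 a positive log2 fold change, from -2.34 to 1.34. DESeq2 called 2 of them lower and 1 higher, so the sum reflects its abundant members, Kit and Gata2 included. The summed level of 10 neutrophil markers was 4001 to 8000 CPM in Gata2+/f and 151 to 443 CPM in Gata2+/+, with 10 of 10 markers higher in Gata2+/f. That of 10 mast cell and basophil markers was 1151 to 3804 CPM in Gata2+/f and 9743 to 11613 CPM in Gata2+/+, with all 9 tested markers, Gata2 again among them, lower. The sums of 10 monocyte and macrophage markers were 1007 to 2393 CPM in Gata2+/f and 321 to 969 CPM in Gata2+/+. Those of 9 erythroid markers overlapped, at 1118 to 6296 CPM in Gata2+/f and 6178 to 10326 CPM in Gata2+/+. The erythroid list was split, with 4 markers positive and 5 negative (log2 fold change -1.44 to 2.80). B cell and T cell markers were scarce, with sums of at most 24.3 and 3.41 CPM in any library. No listed marker was at 0 in all libraries.

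Genes of the mitochondrial ribosome were higher in Gata2+/f as a group, by about 1.4-fold at the median, but 2 of the 3 Gata2+/f libraries carried that difference. Of the 77 genes, all of which passed the filter on low counts, 72 had a positive log2 fold change, against 51.1% of the 15432 genes tested. Their median log2 fold change was 0.49, with the middle range of members from 0.32 to 0.64 and extremes of -0.18 and 1.0, against a median of 0.02 over all genes tested. No single member passed edgeR's quasi-likelihood test after Benjamini-Hochberg adjustment over all genes, as no gene of any kind did (0% of 15432). At an unadjusted p under 0.05, edgeR gave 17 of the 77 as higher and 0 as lower, against 11.1% of all genes as higher and 11.5% as lower. DESeq2 called 5 of the 77, all higher, against 6.16% of all genes called higher and 11.9% in either direction. That share is near the background, so the count of single calls says little about these genes. By limma voom, 0 of the 77 were called, against 9 of all genes tested. At an unadjusted p under 0.05, limma voom gave 11 of the 77 as higher, against 10.2% of all genes. In these bulk samples, fewer cells of a type and less RNA per cell cannot be told apart, and the part of the marker differences above in this result was not tested.

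The libraries show where the difference lay. With each gene set against its own mean log2 CPM over the 6 libraries, the median over the 77 genes was 0.34 in Gata2+/f replicate 7, 0.50 in Gata2+/f replicate 9 and -0.18 in Gata2+/f replicate 11. In Gata2+/+ replicates 3, 5 and 6 it was -0.25, -0.29 and -0.17. Gata2+/f replicate 11 therefore lay among the Gata2+/+ libraries, next to Gata2+/+ replicate 6. Gata2+/f replicate 9 was above every Gata2+/+ library for 72 of the 77 genes and Gata2+/f replicate 7 for 65, against 37.0% and 35.1% of all tested genes. Gata2+/f replicate 11 was above every Gata2+/+ library for 24 of the 77, against 27.8% of all tested genes, and below every one for 16. The share of all tested genes below every Gata2+/+ library was not counted, so the 16 cannot be set against a background. The highest library was Gata2+/f replicate 9 for 50 members, Gata2+/f replicate 7 for 23, Gata2+/+ replicate 5 for 3 and Gata2+/+ replicate 3 for 1.

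**Figure D1:**
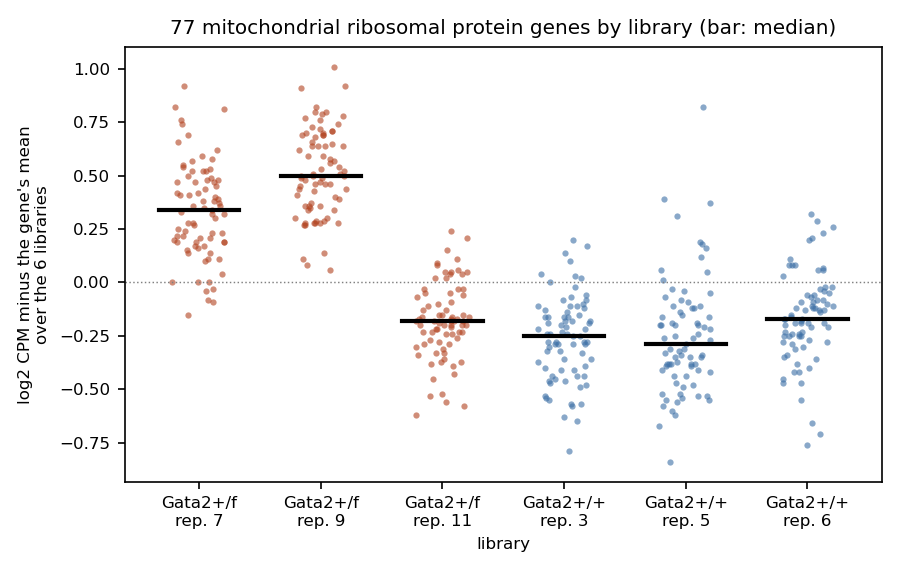
Each point is 1 of the 77 genes; the vertical axis is its log2 CPM minus its mean over the 6 libraries, the horizontal axis the library, and the bar the median. The medians of Gata2+/f replicates 7 and 9 are 0.34 and 0.50, and that of Gata2+/f replicate 11 is -0.18, beside -0.17 for Gata2+/+ replicate 6.

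The 3 Gata2+/f libraries were all above the 3 Gata2+/+ libraries for 24 members (31.2%) and all below for 0, against 13.1% and 16.6% of all tested genes. Leaving out Gata2+/f replicate 11 brought the first count to 66 of 77, against 22.9% of all genes. The median log2 fold change of the members was then 0.69, against 0.08 over all genes tested. By edgeR, 48 members then had an unadjusted p under 0.05, all of them higher, against 3722 of 15782 genes in either direction. These rises follow from the choice of library, as Gata2+/f replicate 11 had the lowest median of its group for these genes. Leaving out each other library in turn gave 27 to 41 such non-overlapping members, against 17.9% to 21.5% of all genes. The member medians were then 0.40 to 0.57, and 6 to 10 members had an unadjusted p under 0.05 by edgeR. Scaling also bears on the count of non-overlapping members. The share of all counts taken by the 77 genes was 0.323%, 0.388% and 0.233% in Gata2+/f replicates 7, 9 and 11 and 0.176%, 0.219% and 0.217% in Gata2+/+ replicates 3, 5 and 6. Without TMM factors, which were 0.821 for Gata2+/+ replicate 3 and 0.958 to 1.11 for the other libraries, the groups did not overlap for 45 members, against 18.8% of all genes.

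Among large subunit genes the difference was largest for Mrpl51, a mitochondria-specific protein (chromosome 6, 125191801 to 125196269 on GRCm38). Mrpl51 had 87.4, 97.8 and 58.7 CPM in Gata2+/f replicates 7, 9 and 11 and 40.4, 36.9 and 44.9 CPM in Gata2+/+ replicates 3, 5 and 6. Every Gata2+/f library was above every Gata2+/+ library, and Gata2+/f replicate 11 was the lowest of its group. This gave a log2 fold change of 1.0 with an SE of 0.25 (95% interval 0.41 to 1.58; edgeR adjusted p = 0.111, DESeq2 adjusted p = 0.0104). Mrpl28, which has a bacterial homologue (chromosome 17, 26123500 to 26126613), had 44.5, 53.4 and 32.7 CPM in Gata2+/f and 20.7, 21.6 and 24.8 CPM in Gata2+/+. Its log2 fold change was 0.96 (SE 0.26; edgeR adjusted p = 0.125, DESeq2 adjusted p = 0.0114), again with no overlap.

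Mrpl16 is the counterpart of a bacterial protein near the site where transfer RNAs are bound (chromosome 19, 11770391 to 11774960). It had 29.9, 23.9 and 19.6 CPM in Gata2+/f and 12.3, 13.2 and 13.4 CPM in Gata2+/+ (log2 fold change 0.92, SE 0.27; edgeR adjusted p = 0.137, DESeq2 adjusted p = 0.0103). Mrpl42, specific to mitochondria (chromosome 10, 95480805 to 95501940), had 37.4, 48.7 and 28.9 CPM in Gata2+/f and 20.6, 21.3 and 20.9 CPM in Gata2+/+ (log2 fold change 0.87, SE 0.26; edgeR adjusted p = 0.139, DESeq2 adjusted p = 0.0237). The spread of both genes among the Gata2+/+ libraries was small, with an SD of 0.615 and 0.342 CPM, and their groups did not overlap.

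In the small subunit the lowest p belonged to Mrps25 (chromosome 6, 92169525 to 92184033). It had 57.7, 78.2 and 46.8 CPM in Gata2+/f and 32.6, 34.0 and 32.0 CPM in Gata2+/+, with no overlap (log2 fold change 0.89, SE 0.25; edgeR adjusted p = 0.128, DESeq2 adjusted p = 0.0198). In the annotation 69.8% of its exon bases are also exon of Nr2c2, a nuclear receptor gene on the opposite strand, so its count is uncertain because the strand setting of the counting is not given in the sources used here. Nr2c2 differed in the other direction, with a log2 fold change of -0.89.

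The remaining 3 of the 8 higher members with the lowest p missed the threshold in DESeq2 as well. Mrpl18, which lies in the central protuberance of the large subunit, had 96.3, 73.8 and 65.9 CPM in Gata2+/f and 50, 41.6 and 53.0 CPM in Gata2+/+ (log2 fold change 0.71, SE 0.23; edgeR adjusted p = 0.154). Mrps21 of the small subunit had 48.7, 65.8 and 48.5 CPM in Gata2+/f and 33.2, 39.3 and 26.5 CPM in Gata2+/+ (0.72, SE 0.25; edgeR adjusted p = 0.169). Mrpl12 forms the stalk that recruits translation factors, and its human protein has also been reported to bind the mitochondrial RNA polymerase. It had 79.2, 104 and 47.1 CPM in Gata2+/f and 38.1, 44.7 and 43.0 CPM in Gata2+/+ (log2 fold change 0.87, SE 0.31; edgeR adjusted p = 0.170). None of the 3 overlapped between groups, although Gata2+/f replicate 11 cleared the highest Gata2+/+ library for Mrpl12 only narrowly.

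**Figure D2:**
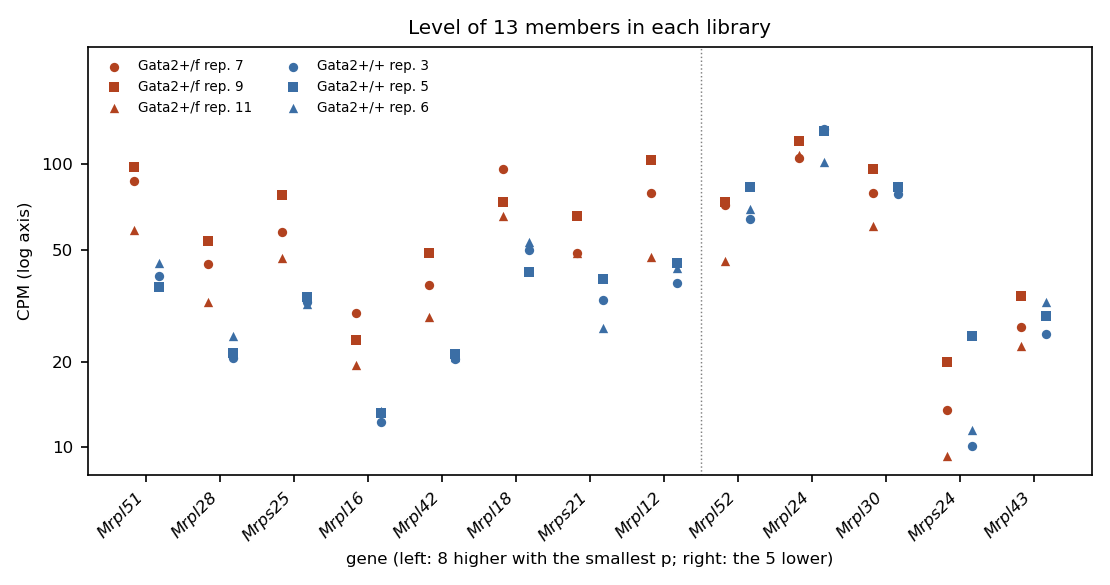
CPM on a log axis in each library for the 8 higher members with the lowest p (left of the dotted line) and the 5 members with a negative log2 fold change (right); colour marks the group and the symbol the replicate. For the 8 on the left all Gata2+/f points lie above all Gata2+/+ points, with Gata2+/f replicate 11 lowest in its group, and for the 5 on the right the groups overlap.

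For the 5 members with a negative log2 fold change the groups overlapped, and no difference beyond the spread between libraries was detectable. Mrpl52, a large subunit protein specific to mitochondria, had 72.1, 73.9 and 45.5 CPM in Gata2+/f and 64.1, 83.1 and 69.7 CPM in Gata2+/+ (log2 fold change -0.18, 95% interval -0.77 to 0.41). Mrpl24, with a bacterial homologue at the exit of the peptide tunnel, had 105, 121 and 108 CPM in Gata2+/f and 133, 131 and 102 CPM in Gata2+/+ (log2 fold change -0.14, 95% interval -0.61 to 0.34). For both, the interval excludes the 0.49 of the median member, a comparison of an interval with a value and not a test.

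The other 3 lay closer to 0 or were uneven. Mrpl30 had 79.2, 96.1 and 60.5 CPM in Gata2+/f and 78.4, 82.9 and 84.0 CPM in Gata2+/+ (log2 fold change -0.06). Mrpl43 had 26.6, 34.3 and 22.9 CPM in Gata2+/f and 25.1, 29.1 and 32.5 CPM in Gata2+/+ (-0.05). Mrps24, the counterpart of a bacterial protein of the small subunit's head, had 13.6, 20.1 and 9.33 CPM in Gata2+/f and 10.1, 24.7 and 11.5 CPM in Gata2+/+ (-0.11, SE 0.46), so its highest library was Gata2+/+ replicate 5. With no scaling beyond library totals the 5 values were 0.00 to 0.14, so their sign depends on the scaling. Mrpl24, Mrpl43 and Mrps24 share 26.3%, 33.4% and 15.4% of their exon bases with the neighbouring genes Rrnad1, Twnk and Urgcp, in that order. These neighbours had log2 fold changes of -0.06, 0.42 and -0.39. Rrnad1 and Twnk, the mitochondrial DNA helicase gene, lie on the opposite strand. Urgcp lies on the same strand as Mrps24 and had a mean of 30.8 CPM over all libraries.

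**Figure D3:**
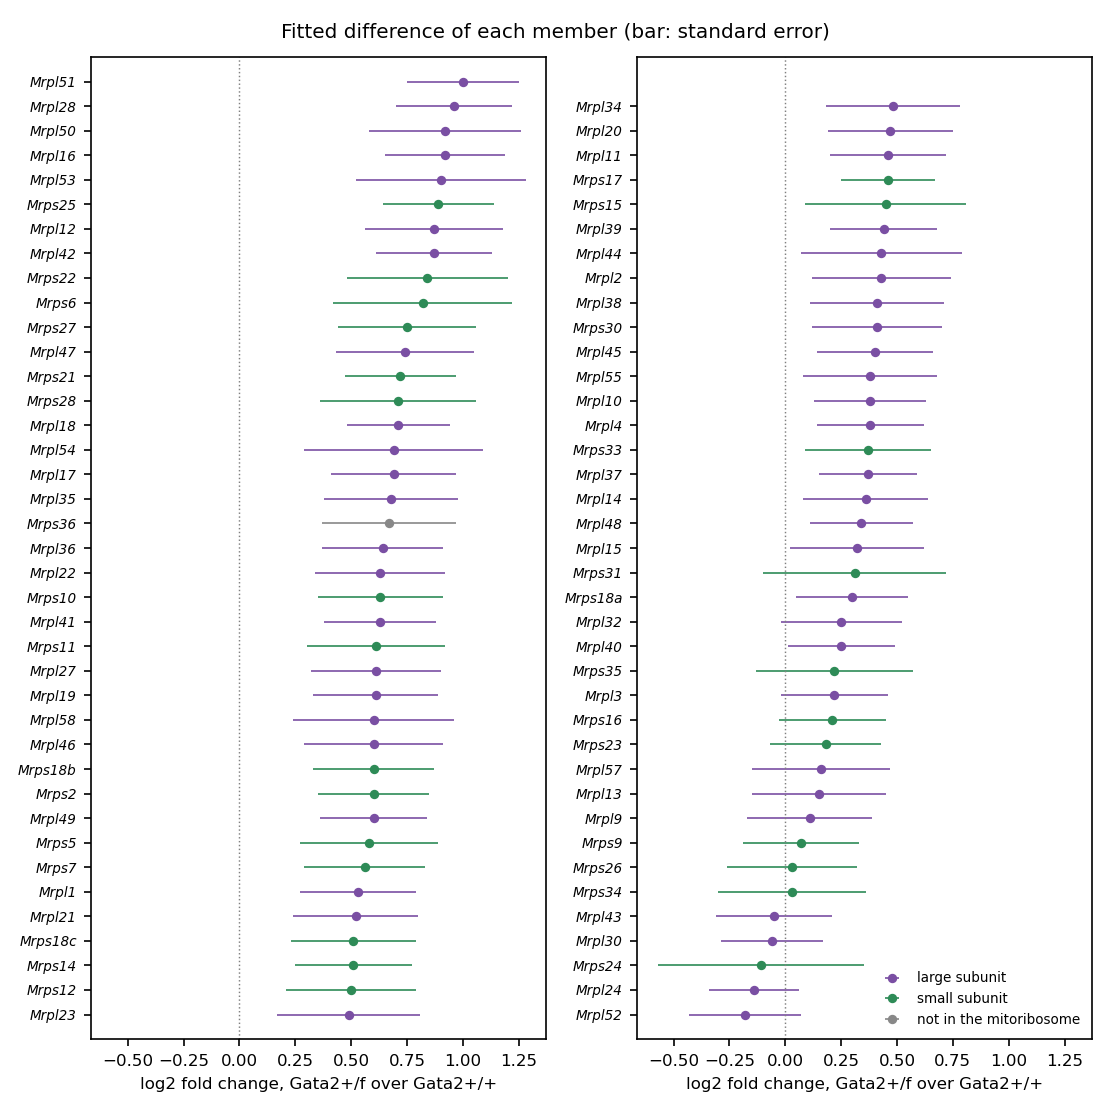
Log2 fold change of Gata2+/f over Gata2+/+ for each of the 77 genes, in descending order down the left and then the right column; bars are standard errors and colours the subunit. Values run from 1.0 for Mrpl51 to -0.18 for Mrpl52, and large and small subunit genes are interspersed.

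Both subunits had medians of the same order. Of 50 large subunit genes 46 had a positive log2 fold change, with a median of 0.46, and of 26 small subunit genes 25 did, with a median of 0.51. The library medians were 0.34, 0.49 and -0.18 for the large and 0.34, 0.56 and -0.20 for the small subunit in Gata2+/f replicates 7, 9 and 11, and between -0.30 and -0.13 for both in the Gata2+/+ libraries. Divided by descent, the 45 proteins with a bacterial homologue had a median of 0.51 (42 positive) and the 31 found in mitochondria only a median of 0.41 (29 positive). These groups were not tested against each other.

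The members named in this paragraph and the next were picked for their role after their values had been seen, other than the Mrps18 genes, Mrps22 and Mrps36. In the large subunit, beside 0.87 for the stalk gene Mrpl12, the stalk base gene Mrpl10 stood at a log2 fold change of 0.38 (SE 0.25) and Mrpl11 at 0.46 (SE 0.26). Mrpl2 and Mrpl3, counterparts of bacterial proteins that reach towards the peptidyl transferase centre, had 0.43 (SE 0.31) and 0.22 (SE 0.24). Beside 0.71 for Mrpl18, the central protuberance genes Mrpl38, Mrpl40, Mrpl46 and Mrpl48 had 0.41, 0.25, 0.60 and 0.34. Mrpl45, which tethers the tunnel exit to the inner membrane, had 65.5, 54.6 and 37.4 CPM in Gata2+/f and 42.5, 35.3 and 41.2 CPM in Gata2+/+ (0.40, SE 0.26), with overlap through Gata2+/f replicate 11.

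In the small subunit, Mrps12, part of the decoding centre, had 19.5, 31.0 and 20 CPM in Gata2+/f and 15.9, 18.2 and 15.9 CPM in Gata2+/+ (log2 fold change 0.50, SE 0.29), with no overlap. Mrps27, a pentatricopeptide repeat protein, had a log2 fold change of 0.75 (SE 0.31). Mrps16 and Mrps22, in which human mutations cause combined respiratory chain deficiency, stood at 0.21 (SE 0.24) and at 0.84 (SE 0.36) on that scale. The 3 Mrps18 genes encode related proteins that occupy different places in the ribosome. Mrps18b had 56.9, 51.5 and 32.7 CPM in Gata2+/f and 33.3, 27.9 and 32.2 CPM in Gata2+/+ (0.60, SE 0.27). Mrps18c had 36.4, 47.2 and 26.3 CPM in Gata2+/f and 24.7, 23.7 and 28.7 CPM in Gata2+/+ (0.51, SE 0.28). Mrps18a of the large subunit had 33.7, 41.6 and 26.7 CPM in Gata2+/f and 26.6, 29.5 and 26.6 CPM in Gata2+/+ (0.30, SE 0.25). In all 3, Gata2+/f replicate 11 lay inside the Gata2+/+ range while Gata2+/f replicates 7 and 9 lay above it. Of the exon bases of Mrps18b and Mrps18c, 30.5% and 23.2% are shared with another annotated gene, as are 10.1% of those of Mrpl18, so these counts are uncertain. The share of bases does not give the size of that uncertainty. Tcp1, opposite Mrpl18, had a mean of 346 CPM over all libraries and a log2 fold change of 0.71, the same as that of Mrpl18. Gm16279, opposite Mrps18b, had a mean of 2.96 CPM, and Gm43511, on the strand of Mrps18c, was not among the genes tested. Mrps36 had 33, 38.7 and 20.3 CPM in Gata2+/f and 18.5, 20.8 and 18.3 CPM in Gata2+/+ (0.67, SE 0.30), the same pattern as the ribosomal members.

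Per-length levels (TPM, counts per kilobase of exon scaled to the same total in each library) differed far more between members than between groups. Mrpl52 had 164 ± 43.9 TPM in Gata2+/f and 175 ± 40.7 TPM in Gata2+/+ (mean ± SD, n = 3 each, here and below). Mrps21 had 209 ± 38.1 TPM in Gata2+/f and 119 ± 29.7 TPM in Gata2+/+, and Mrpl24 140 ± 10.8 TPM in Gata2+/f and 144 ± 21.9 TPM in Gata2+/+. These were the highest 3 by their mean over all libraries. The ranges of the 3 genes over all libraries overlap one another, at 113 to 216 TPM for Mrpl52, 99.2 to 252 TPM for Mrps21 and 125 to 168 TPM for Mrpl24. The lowest were Mrps10 (7.95 ± 1.89 TPM in Gata2+/f, 4.85 ± 1.05 TPM in Gata2+/+), Mrps35 (8.95 ± 3.72 TPM in Gata2+/f, 7.21 ± 1.62 TPM in Gata2+/+) and Mrps22 (10.9 ± 3.43 TPM in Gata2+/f, 5.71 ± 1.65 TPM in Gata2+/+). The median member was at 33.7 TPM, against 12.1 TPM for the median tested gene. The order of the 77 levels was close to constant between libraries, with Spearman's rho over genes, which are not independent replicates, of 0.902 to 0.981 over the 15 pairs. The levels divide by all annotated exon bases, and with the longest transcript as the length Mrps21 came first and Mrps22 last.

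Of 6 proteins of the mitoribosome that the name rule leaves out, 5 had a positive log2 fold change, with a median of 0.51. Ptcd3, a pentatricopeptide repeat protein of the small subunit, had 88.8, 80.6 and 56.9 CPM in Gata2+/f and 43.2, 36.5 and 37.9 CPM in Gata2+/+ (log2 fold change 0.94, SE 0.24; edgeR adjusted p = 0.111, DESeq2 adjusted p = 0.0104). Chchd1 had 37.4, 41.2 and 28.8 CPM in Gata2+/f and 20.7, 18.4 and 22.4 CPM in Gata2+/+ (0.81, SE 0.25; edgeR adjusted p = 0.143, DESeq2 adjusted p = 0.0202). For Gadd45gip1, Dap3 and Aurkaip1 the log2 fold changes were 0.59, 0.43 and 0.24 with overlapping groups. Oxa1l, the membrane insertase that binds the ribosome, was at 50.5 ± 5.85 CPM in Gata2+/f and 58.6 ± 8.31 CPM in Gata2+/+ (-0.21).

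Other nuclear genes of mitochondrial gene expression had smaller medians. Of 24 assembly factors of the mitoribosome 17 were positive with a median log2 fold change of 0.19, and DESeq2 called 2 as higher (8.33%, near the 6.16% of all genes). These were the GTPase Noa1 (43.3 ± 8.91 CPM in Gata2+/f and 25.4 ± 1.78 CPM in Gata2+/+; 0.77, DESeq2 adjusted p = 0.0337) and the ribosomal RNA methyltransferase Mrm3 (11.1 ± 3.49 CPM in Gata2+/f and 5.15 ± 1.09 CPM in Gata2+/+; 1.11, DESeq2 adjusted p = 0.0295). Of 14 translation factors 12 were positive with a median of 0.27, and DESeq2 called 1, the elongation factor gene Tufm. It had 109, 104 and 73.0 CPM in Gata2+/f and 61.4, 49.0 and 50.9 CPM in Gata2+/+ (0.83, SE 0.23; DESeq2 adjusted p = 0.0281). The 17 aminoacyl tRNA synthetases had a median of 0.16 (12 positive), the 19 RNA processing genes one of 0.33 (15 positive) and the 11 genes of mitochondrial DNA maintenance and transcription one of 0.31 (7 positive). In the last of these DESeq2 called Primpol, a primase-polymerase, as lower, at 29.8 ± 1.49 CPM in Gata2+/f and 45.8 ± 3.20 CPM in Gata2+/+ (-0.62, DESeq2 adjusted p = 0.0382).

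Among the listed mitochondrial gene groups outside the mitoribosome itself, protein import was closest to the ribosomal members by its median. Of 30 import genes 28 were positive, with a median log2 fold change of 0.41, 12 (40.0%) with groups that did not overlap, against 13.1% of all genes, and 5 called higher by DESeq2, against 6.16% of all genes. Chchd4, which folds proteins in the intermembrane space, had 30.6, 34.5 and 18.8 CPM in Gata2+/f and 10.6, 11.1 and 15.7 CPM in Gata2+/+ (1.16, SE 0.33; DESeq2 adjusted p = 0.0138). The small chaperone gene Timm8a1 had 62.2, 58.7 and 31.8 CPM in Gata2+/f and 26.9, 14.6 and 23.2 CPM in Gata2+/+ (1.24, SE 0.35; DESeq2 adjusted p = 0.0231). In edgeR neither passed after adjustment (adjusted p = 0.131 for both).

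Genes of the cytosolic ribosome had a median near that of all genes. The 76 cytosolic ribosomal protein genes, many of which have pseudogene copies that can take part of their reads, had a median log2 fold change of 0.01, with 40 positive and 36 negative. Their library medians were -0.02, 0.26 and -0.27 in Gata2+/f replicates 7, 9 and 11 and 0.15, 0.03 and -0.16 in Gata2+/+ replicates 3, 5 and 6. The 13 protein-coding genes of the mitochondrial genome, the templates of the mitoribosome, had a median log2 fold change of 0.15, with groups that overlapped for all 13. Their library medians were 0.12, -0.62 and 0.60 in Gata2+/f replicates 7, 9 and 11, so the library with the highest ribosomal protein levels had the lowest mitochondrial messenger levels, and 0.18, -0.20 and -0.27 in the Gata2+/+ libraries. The libraries were poly-A selected, and mitochondrial messengers carry short tails or none, so these levels depend on the capture as well.

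**Figure D4:**
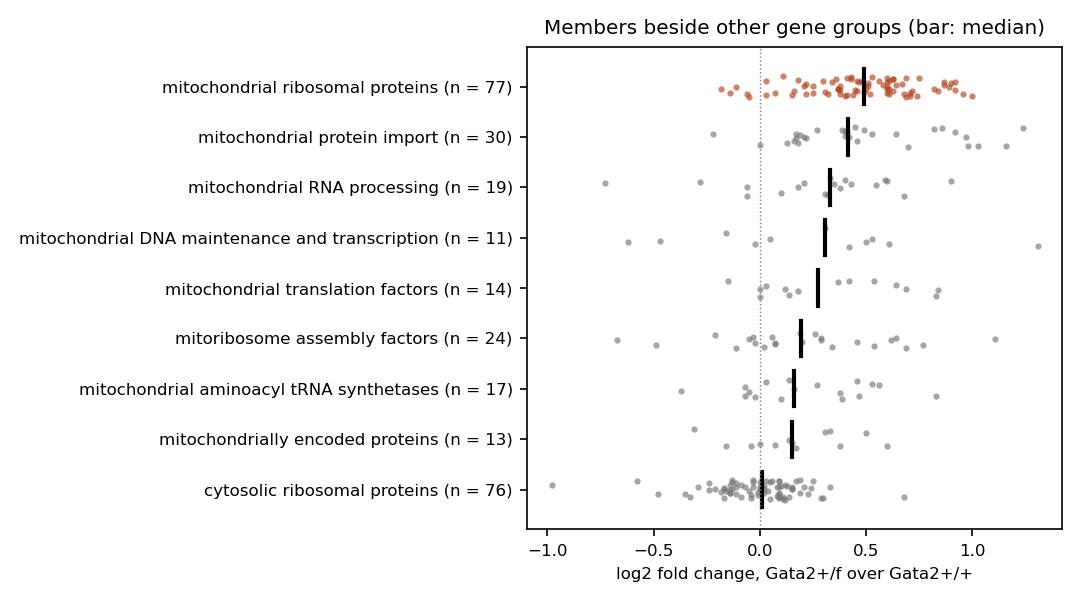
Each point is the log2 fold change of 1 gene, Gata2+/f over Gata2+/+; rows are gene groups with the number of genes tested, and bars are medians. The medians are 0.49 for the mitochondrial ribosomal proteins, 0.41 for import and 0.01 for cytosolic ribosomal proteins.

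Of 25 proliferation genes, all had a positive log2 fold change, 20 had groups that did not overlap, and DESeq2 called 18 as higher. The shares over all genes tested were 51.1%, 13.1% and 6.16% in that order. Their library medians were 0.92, 0.46 and 0.39 in Gata2+/f replicates 7, 9 and 11 and -0.32, -1.10 and -0.36 in Gata2+/+ replicates 3, 5 and 6. Gata2+/f replicate 11 thus stood with its own group for these genes and with the Gata2+/+ libraries for the mitoribosome. Neutrophil markers, at 1.57, 1.69 and 2.81 in Gata2+/f replicates 7, 9 and 11, were highest in Gata2+/f replicate 11, and mast cell markers, at -3.19, -1.52 and -0.82, were the least low there. The part of any of these groups in the ribosomal protein result was not tested.

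**Figure D5:**
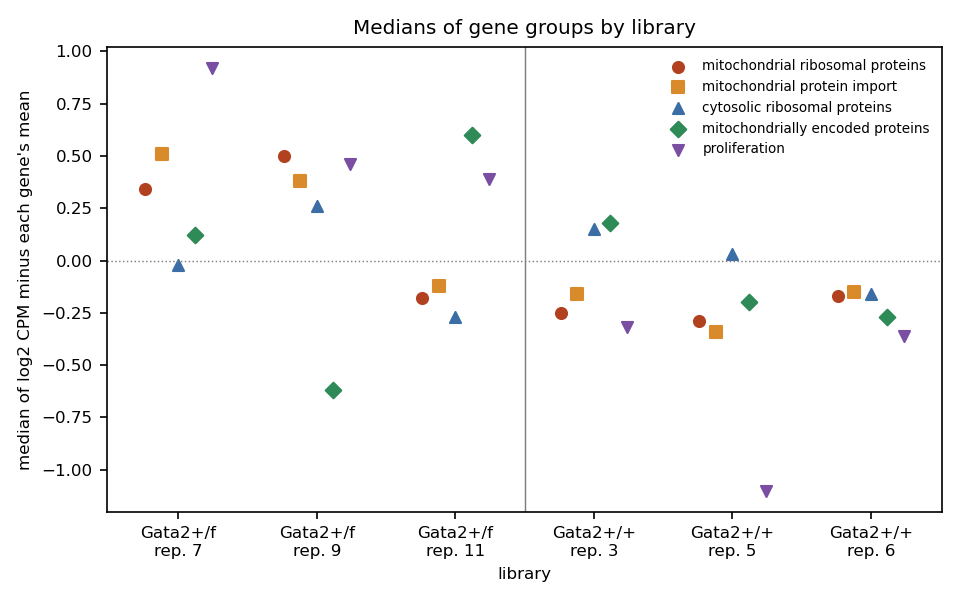
Median over the genes of a group of log2 CPM minus each gene's mean over the 6 libraries, by library. In Gata2+/f replicate 11 the mitochondrial ribosomal proteins are at -0.18 and import at -0.12 while proliferation is at 0.39; in Gata2+/f replicate 9 the mitochondrially encoded genes are at -0.62.

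Of 13 regulators of mitochondrial mass and gene expression, 6 had a positive log2 fold change, with a median of -0.04. Myc, a transcription factor of cell growth, had 158, 205 and 81.6 CPM in Gata2+/f replicates 7, 9 and 11 and 81.1, 80.7 and 61.1 CPM in Gata2+/+ replicates 3, 5 and 6 (log2 fold change 1.0, SE 0.34; edgeR adjusted p = 0.167, DESeq2 adjusted p = 0.0758). Gata2+/f replicate 11 was just above the highest Gata2+/+ library. Pprc1, a coactivator of the PGC-1 family, had 91.9, 59.4 and 50.6 CPM in Gata2+/f and 41.9, 32.8 and 40.3 CPM in Gata2+/+ (0.81, SE 0.28; edgeR adjusted p = 0.166). Chosen after their values were seen, Nrf1 and Gabpa, factors that bind promoters of many mitochondrial genes, were at 50.9 ± 5.88 CPM in Gata2+/f and 46.1 ± 2.47 CPM in Gata2+/+ (0.14) and at 64.0 ± 19.9 CPM in Gata2+/f and 79.4 ± 6.42 CPM in Gata2+/+ (-0.31).

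Promoter letters were counted as a feature that the name rule did not use. In the RefSeq promoter table (GRCm38.p6), 68 of the 77 genes matched by symbol, with 74 windows of 250 bases before and 50 after a transcript start. The core CGGAAG of sites for ETS factors, the family of Gabpa, was found on either strand in 39 of the 74 windows (52.7%), against 29.7% of 12934 windows of tested genes and 16.9% of all 32851 windows. AAGATGG, the core of YY1 sites, was in 13 (17.6%, against 6.93% of tested genes' windows and 6.34% of all). GCGCATG, a core of NRF1 sites, was in 7 (9.46%, against 6.63% and 3.91%), and the E-box CACGTG that MYC can bind was in 7 (9.46%, against 9.70% and 7.15%). No window had 2 of the 4 motifs sharing a base. The 38 genes with CGGAAG and the 30 without it both had a median log2 fold change of 0.50. The 100 bases before the start are printed 5′ to 3′ on the strand of the gene, with the motif letters in capitals, for the 5 members that DESeq2 called and then for all 5 members with a negative log2 fold change, so that both ends of the range can be compared.
Mrpl51 (chr6:125192100-125192199, forward strand): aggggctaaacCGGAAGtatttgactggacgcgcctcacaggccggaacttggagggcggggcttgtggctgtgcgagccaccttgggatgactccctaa
Mrpl28 (chr17:26123403-26123502, forward strand): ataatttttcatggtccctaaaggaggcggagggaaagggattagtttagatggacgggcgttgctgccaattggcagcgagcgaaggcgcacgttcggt
Mrps25 (chr6:92184024-92184123, reverse strand): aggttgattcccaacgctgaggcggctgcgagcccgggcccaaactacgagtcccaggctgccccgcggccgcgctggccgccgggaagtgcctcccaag
Mrpl16 (chr19:11770315-11770414, forward strand): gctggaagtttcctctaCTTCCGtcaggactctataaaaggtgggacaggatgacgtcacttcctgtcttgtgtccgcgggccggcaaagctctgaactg
Mrpl42 (chr10:95501950-95502049, reverse strand): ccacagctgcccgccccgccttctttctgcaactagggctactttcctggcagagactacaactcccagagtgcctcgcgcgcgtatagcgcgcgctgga
Mrpl52 (chr14:54426809-54426908, forward strand): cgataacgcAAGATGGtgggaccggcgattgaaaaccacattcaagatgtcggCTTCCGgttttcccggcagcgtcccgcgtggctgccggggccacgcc
Mrpl24 (chr3:87919444-87919543, forward strand): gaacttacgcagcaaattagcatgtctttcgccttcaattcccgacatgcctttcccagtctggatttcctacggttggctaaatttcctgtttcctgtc
Mrps24 (chr11:5707702-5707801, reverse strand): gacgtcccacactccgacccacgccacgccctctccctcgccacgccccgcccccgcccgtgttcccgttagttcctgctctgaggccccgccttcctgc
Mrpl30 (chr1:37890377-37890476, forward strand): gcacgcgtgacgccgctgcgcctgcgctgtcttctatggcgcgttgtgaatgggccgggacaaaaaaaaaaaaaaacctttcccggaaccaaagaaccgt
Mrpl43 (chr19:45006443-45006542, reverse strand): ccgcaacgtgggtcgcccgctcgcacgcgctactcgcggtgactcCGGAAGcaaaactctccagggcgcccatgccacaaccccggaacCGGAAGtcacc
Among the 5 called members Mrpl51 holds CGGAAG and Mrpl16 its reverse complement in these bases, while Mrpl28, Mrps25 and Mrpl42 hold none of the 4 motifs there. Among the 5 negative members Mrpl43 holds CGGAAG and Mrpl52 its reverse complement and AAGATGG, while Mrpl24, Mrps24 and Mrpl30 hold none there. A match is a string of letters and not a measured site.

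The members lie on 17 chromosomes, and their median log2 fold change was positive on each of the 17, from 0.15 to 0.78, and above the median of all tested genes of that chromosome. Whole chromosomes differed between libraries in a few cases that touch members. Genes of chromosome 6, which holds 7 members with Mrpl51 and Mrps25 among them, had a median log2 fold change of 0.20 and those members one of 0.68. In Gata2+/f replicate 9 its genes stood at 0.21 and its members at 0.72, and the part of the chromosome in their values was not tested. Genes of chromosome 8 had a median of 0.42 in Gata2+/f replicate 7, where its members Mrpl34 and Mrps31 had 0.66. The library values in this paragraph are medians of log2 CPM, relative to each gene's median over the libraries for all genes with a mean log2 CPM of at least 3 and to its mean for the members. Chromosome 15 genes stood at 0.35 and 0.36 in Gata2+/+ replicates 3 and 6, and Mrpl13, its only member, had 44.0, 48.1 and 30.0 CPM in Gata2+/f replicates 7, 9 and 11 and 40.3, 26.0 and 43.5 CPM in Gata2+/+ replicates 3, 5 and 6. Mrpl13 was thus lowest in Gata2+/+ replicate 5, the Gata2+/+ library in which chromosome 15 genes stood at -0.13. In Gata2+/f replicates 7, 9 and 11 those genes stood at -0.02, -0.12 and -0.23, and Mrpl13 was highest in Gata2+/f replicate 9. The part of the chromosome in the values of Mrpl13 was not tested. In all, 29 of the 77 genes share over 50 exon bases with another gene, 7 of them on the same strand, the most extreme being Mrpl53, with 88.0% of its exon bases inside Gm42688 (8.90, 18.0 and 10.5 CPM in Gata2+/f and 6.96, 7.06 and 6.09 CPM in Gata2+/+).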

How the data were processed

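The deposited table holds RSEM expected counts (estimated read counts) per Ensembl gene, 1 column per library. Per the labels' protocols, RNA was poly-A selected and libraries keep the strand (TruSeq). Tools listed in the submitters' processing notes are RSEM 1.3.0, CASAVA 1.8.2 and STAR 2.5.4a, with the build GRCm38. The annotation release and the strand setting of the counting are not given in the sources used here. Of 43629 IDs, 42548 (97.5%) were in GENCODE M21. Of the values, 11.7% were not whole, and counts were rounded. Genes were filtered with filterByExpr (minimum count 10) and tested with edgeR 4.0.16 in R 4.3.3, by TMM scaling, the quasi-likelihood test and Benjamini-Hochberg adjustment over 15432 genes, with a threshold of 0.05. DESeq2 1.42.0 and limma voom 3.58.1, other scalings and filters, and leaving out each library were alternatives; no scaling beyond library totals was added after the data had been seen. CPM use the TMM factors, and log2 CPM a prior count of 2. A count of 3 corresponds to 0.0442 to 0.0558 CPM, for counting error only. No libraries were duplicates (chi-square per gene 240 or more). The script steps were tested on simulated data.

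Named members were those called by edgeR or DESeq2, the 8 higher and up to 8 lower with the lowest p, the 3 highest and 3 lowest per-length levels, the Mrps18 genes and Mrps36; from other lists, at most the 2 genes of lowest p, and all 6 mitoribosome proteins outside the name rule. Others were named outside these rules with their values known, and not all are marked as such where they appear. Among the unmarked are Mrpl13, Mrpl34, Mrps31 and Mrpl53, and genes that overlap a member. Members, lists and rules were chosen with earlier results of these data known. Promoter sequences are from RefSeq (GRCm38.p6).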

Additional observations from a re-analysis of the deposited data

How the results depend on the processing

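The median log2 fold change of the 77 genes stayed positive under all alternatives run, and 67 to 77 of them were positive. No member was called by edgeR under any scaling, filter or left-out library; DESeq2 called 5 (Mrpl51, Mrpl28, Mrps25, Mrpl16 and Mrpl42). The members whose groups did not overlap in the higher direction numbered 24, against 38 with upper quartile factors, 45 with no scaling beyond library totals and 37 with no filter beyond 1 count; the shares of all genes were 13.1%, 16%, 18.8% and 11% in that order. Those 2 scalings moved the median of all genes to 0.11 and 0.21, and the median of the members stood 0.49 and 0.48 above it, against 0.47 with TMM. Without scaling the library median of Gata2+/+ replicate 3 was -0.53. Leaving out each library in turn gave 27 to 66 non-overlapping higher members (17.9% to 22.9% of all genes) and 0 to 1 lower, 0 called, 67 to 76 positive, and medians of 0.40 to 0.69 (large subunit 0.39 to 0.68, small subunit 0.42 to 0.70). The highest values came without Gata2+/f replicate 11 and the lowest medians without Gata2+/f replicate 9. Small values changed sign: with upper quartile factors Mrpl30 was 0.04 and Mrpl43 0.05; without scaling Mrpl52 was 0.00, Mrpl24 0.06, Mrpl30 0.14, Mrps24 0.05 and Mrpl43 0.14. With a library left out, ranges were -0.17 to 0.11 for Mrpl43, -0.25 to 0.05 for Mrpl52, -0.18 to 0.14 for Mrpl30, -0.38 to 0.40 for Mrps24 and -0.05 to 0.54 for Mrps35. The cause was not tested. No paired analysis was possible because the groups share no replicate numbers. All 77 genes passed the count filter, so depth left none of them undetected.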

Other observations

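Many members start close to a neighbour that is read the other way. Pairs were counted head to head, with starts at most 1000 bases apart or genes that overlap by at most 200 bases. Of the 77 genes, 23 (29.9%) had such a protein-coding neighbour on the opposite strand, against 12% of 12945 tested protein-coding genes. The 23 partners counted this way, none of them a member, had a median log2 fold change of 0.35, and 17 were positive. Head-to-head pairs with a longer overlap were left out. Among these were Mrpl43 with Twnk, and the members Mrpl46 and Mrps11 with each other (0.60 and 0.61). The pairs differed among themselves: Mrpl51 and the condensin gene Ncapd2, with starts 100 bases apart, had 1.0 and 1.10, and Mrps12 and the mitochondrial seryl-tRNA synthetase gene Sars2, 172 bases apart, had 0.50 and 0.83. Mrpl41 and Pnpla7, a lysophospholipase gene, had 0.63 and -1.18. The pairs named were chosen after their values were seen, and no test was made.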
